A study of Mus musculus with 9 samples.

Results

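The response of β-actin knockout mouse embryonic fibroblasts (MEFs) to transfected poly(dA:dT), a synthetic DNA duplex of alternating deoxyadenosine and thymidine, was examined by comparing 3 poly(dA:dT) libraries with 3 mock libraries, which are 6 of the 9 libraries of the series. The samples were chosen by their treatment labels, and all genes were described. The cells were of the BALB/c strain and came from embryos of day 10.5, and both groups carried the β-actin knockout. The treated cells received 10 µg/ml poly(dA:dT) with the lipid reagent Lipofectamine 2000 in Opti-MEM medium and were collected after 6 h, and the mock cells received the reagent alone for 6 h. The other 3 libraries came from the same knockout cells given poly(I:C), an RNA mimic, at the same dose for the same time, and they are set beside the others where the text says so. No wild-type cells were part of the libraries used, so the values describe knockout cells only. The sources used here do not say whether the knockout cells were 1 clone or whether replicates were separate cultures. The p-values then measure only how these libraries spread, which may be technical.

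Cytosolic double-stranded DNA is bound by the enzyme cGAS, which makes a cyclic dinucleotide that activates the adaptor STING. DNA rich in A and T can also be copied by RNA polymerase III into an RNA that the helicase RIG-I detects. Both routes activate the kinase TBK1 and the factors IRF3 and NF-κB, which switch on the interferon β gene, and secreted interferon then raises antiviral genes through JAK kinases, STAT factors and IRF9.

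Between 19826550 and 29219797 counts were assigned to genes in the mock libraries, and between 20738109 and 23185293 in the poly(dA:dT) libraries. Levels are given as CPM, counts scaled to library size by the cpm function of edgeR. The upper limit for a gene with 0 counts, set at 3 counts, corresponded to 0.107 to 0.158 CPM in the mock libraries and 0.128 to 0.144 CPM in the treated ones. These limits and the counting intervals given later cover counting error only. The biological coefficient of variation over all genes was 2.09%, so that changes of a few percent in abundant transcripts passed the test. The targeted gene Actb kept 924, 772 and 658 counts in the mock libraries and 657, 680 and 716 after poly(dA:dT), and it was not called (edgeR quasi-likelihood test, adjusted p = 0.0613), although it was called lower with DESeq2 size factors (log2 -0.14, adjusted p = 0.0290) and without mock replicate 2 (log2 -0.15, adjusted p = 0.0453). How much of the gene was deleted is not stated in the labels, and reads of other actin genes can be assigned to it. The summed level of 14 fibroblast markers ranged from 7721 to 7888 CPM in mock and from 7424 to 7549 CPM in treated libraries, as the label of fibroblasts asks. Markers of macrophages summed to at most 11.3 CPM, those of endothelium to at most 12.7 CPM and those of epithelium to at most 10.6 CPM in any of these 6 libraries, and those of skeletal muscle to at most 17.8 CPM. The 7 neural markers summed to between 399.5 and 409 CPM in mock and between 361 and 391 CPM in treated libraries. Most of that was Nes, the gene of nestin (named after its values were seen), at means of 336 and 311 CPM, while Sox2 and Neurod1 were at 0 counts in all 6. Of 6 endothelial markers, 4 were tested and 3 of them, Kdr, Pecam1 and Cdh5 (named after their values were seen), were called higher, each from under 0.5 CPM to under 1.5 CPM, and the part of such cells in the results was not tested.

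The promoters of 5 genes that stand for the responses described below are shown first, so that the short motifs each window does or does not hold can be read beside the values. Each sequence is the 250 bases before the RefSeq transcript start (GRCm38.p6), read 5′ to 3′ on the strand of the gene. The windows are chr4:88522795-88523044 (minus strand) for interferon β, chr19:34640639-34640888 (plus strand) for Ifit1, chr5:92348890-92349139 (minus strand) for the chemokine Cxcl10, chr7:141266425-141266674 (minus strand) for the interferon regulatory factor Irf7 and chr10:117710759-117711008 (minus strand) for the p53 inhibitor Mdm2. Capitals mark matches, on either strand, to the core of the interferon-stimulated response element (ISRE, GAAANNGAAA), to the AP-1 site TGANTCA, to the cyclic AMP response element TGACGTCA, or to the NF-κB and CArG consensus motifs, which bind NF-κB and serum response factor.
Ifnb1: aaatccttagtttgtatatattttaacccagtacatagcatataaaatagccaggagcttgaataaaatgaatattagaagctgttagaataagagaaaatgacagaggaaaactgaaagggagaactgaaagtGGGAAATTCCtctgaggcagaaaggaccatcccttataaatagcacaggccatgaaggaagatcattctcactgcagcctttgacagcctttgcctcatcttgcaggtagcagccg
Ifit1: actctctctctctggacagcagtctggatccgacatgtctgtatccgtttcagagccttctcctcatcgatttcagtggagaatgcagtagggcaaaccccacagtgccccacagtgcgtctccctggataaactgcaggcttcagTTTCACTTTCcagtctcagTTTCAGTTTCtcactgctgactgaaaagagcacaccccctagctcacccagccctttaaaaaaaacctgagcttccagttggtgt
Cxcl10: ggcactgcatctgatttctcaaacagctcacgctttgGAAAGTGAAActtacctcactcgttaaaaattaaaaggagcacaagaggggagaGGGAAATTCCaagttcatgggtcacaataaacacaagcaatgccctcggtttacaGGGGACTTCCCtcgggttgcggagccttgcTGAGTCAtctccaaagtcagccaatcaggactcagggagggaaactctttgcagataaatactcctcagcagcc
Irf7: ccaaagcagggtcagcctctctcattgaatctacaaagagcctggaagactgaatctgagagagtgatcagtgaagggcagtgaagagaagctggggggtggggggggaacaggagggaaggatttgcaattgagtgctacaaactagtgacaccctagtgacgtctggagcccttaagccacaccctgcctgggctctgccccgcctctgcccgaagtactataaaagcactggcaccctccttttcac
Mdm2: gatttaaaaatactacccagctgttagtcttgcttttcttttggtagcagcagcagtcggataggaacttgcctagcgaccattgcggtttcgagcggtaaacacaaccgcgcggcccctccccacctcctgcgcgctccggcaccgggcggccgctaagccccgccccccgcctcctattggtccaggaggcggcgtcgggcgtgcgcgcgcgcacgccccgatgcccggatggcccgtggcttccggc
Ifnb1 held an NF-κB match 116 to 107 bases before the start. Ifit1 held ISRE cores 104 to 95 and 85 to 76 bases before it. Cxcl10 held an ISRE core at 213 to 204, NF-κB matches at 159 to 150 and, overlapping each other, at 104 to 94, and an AP-1 match at 74 to 68. The windows of Irf7 and Mdm2 held none of these letters, which says nothing about factors that bind elsewhere.

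Over all promoter windows of 300 bases (250 before to 50 after the start), 3.44% of 32851 held the ISRE core and 8.46% the NF-κB motif. Windows were matched for 10464 of the 14176 genes tested, and 3.07% of those held the ISRE core. Among genes with at least a 2-fold rise the share was 9.13% (40 of 438 windows, from 367 of 544 genes), and among genes called lower it was 2.93%. For the antiviral effector and GTPase genes on the lists described below, 36 of 66 windows held it, or 54.5%. The NF-κB motif stood in 10 of the 31 windows of chemokine and cytokine genes, or 32.3%. The CArG motif, present in 1.63% of all windows, stood in 5 of 28 windows of immediate early genes, or 17.9%. The NF-κB motif was more frequent there, in 8 windows or 28.6%, and the AP-1 site stood in 0. The AP-1 site stood in 24.2% of effector and GTPase windows and 22.6% of chemokine and cytokine windows, against 5.09% for genes tested. Effector and GTPase windows held the NF-κB motif at 15.2%, against 10.7% for genes tested. The ISRE core stood in 3.23% of chemokine and cytokine windows. A match is a description of the letters and not a measured binding site.

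The comparison with mock asks which transcripts the DNA mimic changes within 6 h. Of 14176 genes tested, 3769 were called higher, a share of 26.6%, and 3721 were called lower, a share of 26.2% (edgeR quasi-likelihood test, adjusted p under 0.05). The size of the changes was unequal in the 2 directions. At least 2-fold higher were 544 genes (3.84% of those tested), of which 102 rose 4-fold to 8-fold and 90 rose 8-fold or more. Most of these 544 genes were also of low abundance, with 305 under 1 CPM and 159 at 1 to 10 CPM on average over the 6 libraries. At least 2-fold lower were 9 genes (0.0635%), none of which reached 1 CPM on average. Of the genes called lower, 826 had changed by less than 1.1-fold and 2422 by 1.1-fold to 1.25-fold. With library totals alone as the scaling, 67.7% of the calls were increases, against 50.3% in the fit reported here, and the median log2 fold change of all genes moved from 0.01 to 0.08. The direction of a change of a few percent therefore depends on the scaling. Log2 fold changes below compare poly(dA:dT) with mock and carry a standard error (SE) derived from the test statistic. For large rises from few mock counts, as in Ifit1, Ccl5, Rsad2 and Hist1h1b, this SE is smaller than counting error alone would give. The shares of 26.6% higher and 26.2% lower are the background for the counts of every list below.

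**Figure D1:**
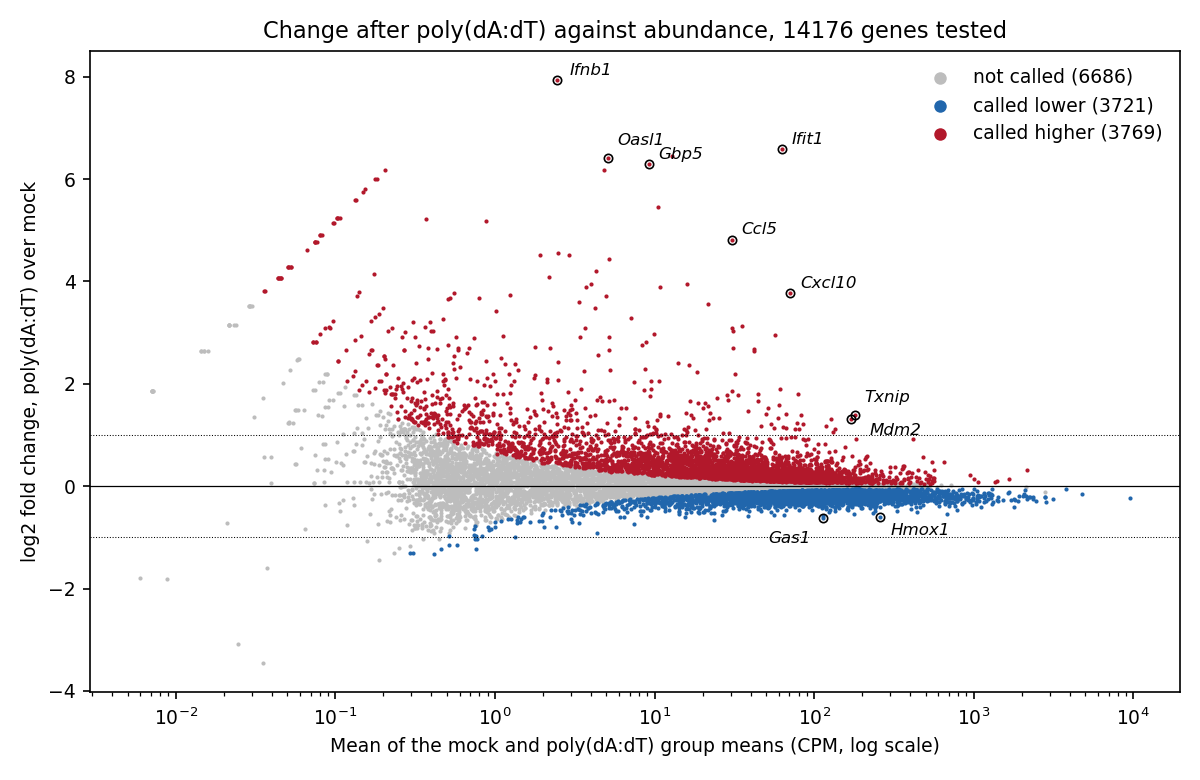
Log2 fold change of poly(dA:dT) over mock (vertical axis) against the mean of both group means in CPM (horizontal log axis), 1 point per tested gene. Genes called higher are in red, called lower in blue and not called in grey, and selected genes are labelled. Dotted lines mark 2-fold. Changes of at least 2-fold lie almost wholly above the zero line, with 544 genes above and 9 below.

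Interferon transcripts went from none or a single count to detectable levels. Ifnb1, which encodes interferon β (chromosome 4, 88522025 to 88522774), had 1, 0 and 0 counts in the mock libraries and 120, 99 and 106 after poly(dA:dT). Ifna4, an early interferon α, had 0 counts in all mock libraries and 7, 2 and 5 after poly(dA:dT), at least 4.93-fold higher against 3 counts over the group. Of 20 interferon genes 12 were at 0 in all 6 libraries, and only Ifnb1 and Ifna4 passed the filter, which ran over all 9 libraries. Ifna4 was not tested in a fit of only the 6 libraries or with a filter of 50 counts. In both settings 1 interferon gene was called higher. Ifna4 thus passed through the poly(I:C) libraries, as other genes of few counts named below may have. The Ifnb1 level after poly(dA:dT) averaged 4.86 CPM, and here, as for all genes below, more cells with a transcript and more RNA per cell cannot be told apart in bulk RNA. After poly(I:C) at the same dose and time its mean was 88.2 CPM, a log2 difference of 4.19 between the mimics (adjusted p = 8.76e-103, edgeR). Of all genes tested, 31.3% were higher after poly(I:C) than after poly(dA:dT) and 32.1% were higher after poly(dA:dT).

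Sensors of cytosolic DNA were mostly present before treatment and moved little. Of 27 tested genes of the DNA sensing list, 13 rose, 4 fell and 10 were not called, with a median log2 fold change of 0.10 against 0.01 for all genes. Cgas, which encodes the DNA sensor, stood at 50.9, 54.4 and 54.5 CPM in the mock libraries and 68.6, 63.2 and 63.8 CPM in the treated ones, groups that did not overlap (log2 0.29 ± 0.041, adjusted p = 1.81e-10, edgeR). Tmem173, the gene of STING, had only 39, 38 and 25 counts in mock and 22, 25 and 30 after poly(dA:dT), overlapping groups with no call (adjusted p = 0.313). Its mean stayed near 1 CPM in both groups, and protein was not measured. Tbk1, the kinase that joins the routes, was called lower, at 85.8 and 81.2 CPM, but the call was lost under 11 of 15 alternative settings. Larger rises on the list were those of Zbp1, whose product binds left-handed nucleic acids, from 0.0489 to 0.381 CPM, and of Ifi207 and Ifi203, members of the DNA-binding p200 family, with log2 fold changes of 1.95 and 0.88. Rnaseh2c, a subunit of the nuclease that removes RNA from DNA hybrids, fell by 0.46 on the log2 scale, and Hmgb1, a chromatin protein that binds DNA, fell by 0.30.

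RNA polymerase III subunits changed by small amounts in both directions. Of 17 genes, 6 rose, 4 fell and 7 were not called, beside 26.6% higher and 26.2% lower over all genes. The largest change was the rise of the initiation factor gene Brf2 by 0.26 on the log2 scale. Polr3g, an alternative subunit of the enzyme, fell from 22.5, 21.2 and 23.7 CPM to 18.6, 18.1 and 20.4 CPM. Its groups did not overlap. The number of rises depended on the setting, with 2 in a DESeq2 fit and without poly(dA:dT) replicate 2, 3 without mock replicate 2, and 4 against 5 falls with DESeq2 size factors.

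In the RNA sensing branch the sensors rose and the adaptors moved less. Of 17 tested genes, 11 rose, 1 fell and 5 were not called. Ddx58, which encodes RIG-I, went from 46.5, 48.7 and 47.1 CPM in mock to 105, 103 and 103 CPM. Ifih1, the gene of the long RNA sensor MDA5, went from 8.59, 7.35 and 9.05 CPM to 53.4, 55.3 and 52.1 CPM. For both, every treated library lay above every mock library, with log2 fold changes of 1.13 ± 0.034 and 2.69 ± 0.057. Dhx58, which encodes the regulator LGP2, rose by 2.56 ± 0.15 from a mean of 1.29 CPM. Trim25, a ubiquitin ligase that acts on RIG-I, rose by 0.96, and Ikbke, a kinase related to TBK1, by 0.86. Pcbp2, which limits MAVS, was the single member to fall, by 0.07 on the log2 scale, but not with library totals as the scaling (log2 0.00). The falls numbered 2 without replicate 3 of mock or replicate 2 of poly(dA:dT).

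Of the 8 tested interferon regulatory factors, 6 rose and none fell in this fit, with a median log2 fold change of 0.77. Irf7, which amplifies interferon α production, rose from 2.29, 3.11 and 3.47 CPM to 11.8, 12.3 and 11.7 CPM (log2 2.04 ± 0.11). Irf1, a factor shared by the interferon and NF-κB responses, rose from 73, 76.7 and 69.8 CPM to 181, 182 and 182 CPM (log2 1.31 ± 0.028). Irf3, the factor that TBK1 phosphorylates, stood at 21.9, 21.5 and 20.9 CPM and 24.5, 22.1 and 24.7 CPM and missed the threshold (adjusted p = 0.0519, edgeR), although 5 alternative settings, among them leaving out poly(dA:dT) replicate 2, called it higher. Irf7 and Irf1 separated widely from mock, whereas the Irf3 values lay close together. Irf9, the DNA-binding part of the interferon-activated complex, rose by 1.52 ± 0.065, and Irf8 rose by 0.93 ± 0.21 from 1.33 CPM.

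Transcripts of the receptor-to-STAT pathway changed less than those of the factors it induces. Of 15 tested receptors, JAKs and STATs, 4 rose, 3 fell and 8 were not called, near the 26.6% higher and 26.2% lower over all genes. Stat2 rose from 33.5, 31.1 and 31.9 CPM to 77, 75.4 and 71.8 CPM, the single member at least 2-fold higher. Its groups were fully apart. Tyk2 rose by 0.33, while Jak1, the kinase of the same receptor, fell from 284 to 255 CPM. The falls numbered 1 without mock replicate 2 and with library totals as the scaling.

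Interferon-stimulated effectors, which block viral entry, translation and replication, formed the largest block of strong rises. Of 54 tested members, 42 rose, 2 fell and 10 were not called. At least 2-fold higher were 31, and the median log2 fold change was 1.34. The falls numbered 1 with DESeq2, with the filter of 50 counts or without poly(dA:dT) replicate 2. Rsad2, which encodes viperin, rose from 0.251, 0.166 and 0.316 CPM to 4.79, 5.39 and 6.48 CPM (log2 4.51 ± 0.23). Rtp4 rose from 0.43, 0.291 and 0.684 CPM to 9.77, 10.7 and 9.18 CPM (log2 4.44 ± 0.17). Oasl2, a member of the oligoadenylate synthetase family, rose from 1.4, 1.66 and 0.947 CPM to 20.3, 20.2 and 20.7 CPM (log2 3.89 ± 0.11). In all 3 genes the lowest treated library stood far above the highest mock library. Oas2, which makes the 2′-5′ oligoadenylates that switch on RNase L, had 0 counts in mock and 6, 8 and 10 after poly(dA:dT), at least 8.45-fold higher. Adar, the double-stranded RNA editing enzyme, was already at 59.5 CPM and rose to 87.2 CPM.

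The Ifit genes, whose proteins bind viral RNA ends, did not move alike although they lie side by side on chromosome 19. Ifit3 rose from 0.716, 0.54 and 0.842 CPM to 8.05, 7.36 and 7.96 CPM, and its near-identical copy Ifit3b from 1.33 to 13 CPM, values that are uncertain singly because reads of one copy can be assigned to the other. Ifit1 rose by 6.59 ± 0.063 from a mean of 1.29 CPM. Ifit2 was at 50.2, 49.1 and 52.5 CPM in the mock libraries and 57.5, 56.8 and 57.9 CPM in the treated ones, groups that lay close together (log2 0.18 ± 0.04, adjusted p = 3.28e-05, edgeR). After poly(I:C) Ifit2 stood at 233, 234 and 219.5 CPM, higher than after poly(dA:dT) by 2.00 on the log2 scale. The 5 genes tested between 34583531 and 34650009 on chromosome 19, a span from Ifit3 to Ifit1, were all at least 2-fold higher. Among the Ifitm genes, whose proteins restrict viral entry, Ifitm2 fell from 124, 127 and 119.8 CPM to 97.5, 96.8 and 95.8 CPM. Ifitm1 was called lower at 1.04 and 0.518 CPM, but its groups overlapped, and the call was lost with DESeq2 and without replicate 2 of either group.

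**Figure D2:**
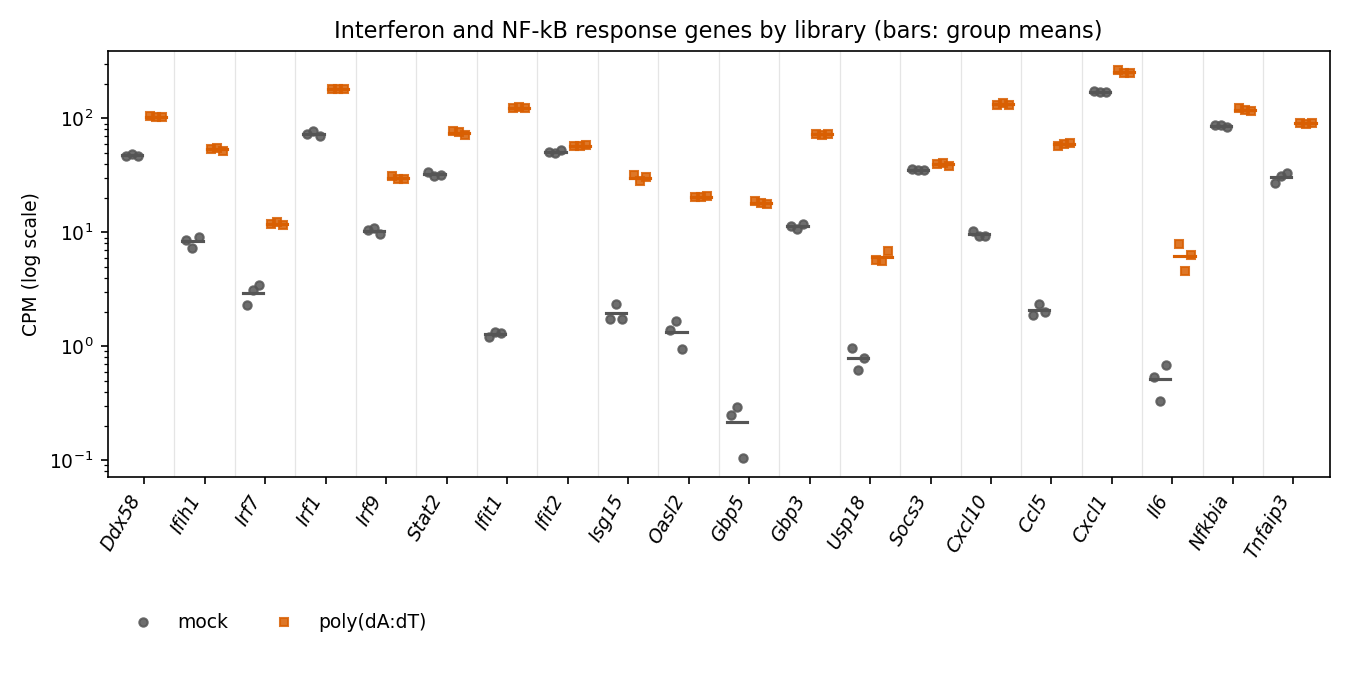
Level in CPM (log axis) of 20 interferon and NF-κB response genes in each of the 3 mock (circles) and 3 poly(dA:dT) libraries (squares), 1 point per library, with bars at the group means. The treated points of Ifit1 lie near 124 CPM against 1.29 CPM in mock, whereas those of Ifit2 lie close to its mock points.

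Interferon-inducible GTPases, which attack the vacuoles and replication sites of pathogens, gave a higher median than the effectors. Of 16 tested, 13 rose, 0 fell and 3 were not called, with a median log2 fold change of 2.51, or 2.11 with genes of few mock counts at their bound. Gbp3 rose from 11.3, 10.7 and 11.8 CPM to 72.2, 71.1 and 73.3 CPM (log2 2.68 ± 0.047). Irgm2 rose from 2.65, 2.03 and 1.79 CPM to 16.9, 14.9 and 15.2 CPM (log2 2.82 ± 0.11). Iigp1 rose from 0, 1 and 5 counts to 10, 20 and 19 counts. No treated library of these 3 genes overlapped a mock library. Mx1, the GTPase that blocks influenza viruses, reached a mean of 2.13 CPM from 0.51 CPM, and after poly(I:C) it reached 41.1 CPM. All 16 GTPases and 52 of the 54 effectors were higher after poly(I:C) than after poly(dA:dT).

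Feedback inhibitors of interferon signalling were split. Of 17 tested, 8 rose, 4 fell and 5 were not called. Usp18, which removes ISG15 and blocks the interferon receptor, rose from 0.967, 0.623 and 0.789 CPM to 5.7, 5.56 and 6.91 CPM (log2 2.91 ± 0.17). Socs1, the main SOCS inhibitor of JAK kinases, stood at 6.3, 7.23 and 7.74 CPM and 8, 7.74 and 8.13 CPM and was not called (adjusted p = 0.144, edgeR), except with library totals as the scaling. Cish and Socs2, 2 other members of that family, rose by 1.37 ± 0.19 and 1.02 ± 0.11, and Socs3 by 0.17 ± 0.049. Socs5 fell from 135 to 111 CPM. Usp18 and Cish separated from mock at this time, and the Socs1 values lay close together.

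Most tested chemokines were called higher, among them those that attract T cells and natural killer cells. Of 19 tested chemokines, 13 rose, 1 fell and 5 were not called, and 8 rose at least 2-fold. Cxcl10 rose from 10.3, 9.22 and 9.32 CPM to 131, 135 and 131 CPM (log2 3.78 ± 0.042). Ccl5 rose from 1.9, 2.37 and 2 CPM to 57.5, 59.1 and 60.2 CPM (log2 4.82 ± 0.07). Cxcl11, a ligand of the same receptor as Cxcl10, rose from 0.537, 0.332 and 0.421 CPM to 7.52, 9.37 and 7.52 CPM. None of the 3 genes had a treated library within the range of mock. Cxcl1, which attracts neutrophils, started at 171 CPM and rose to 254 CPM. Cxcl2 rose by 3.42 ± 0.34 from 0.181 CPM, and Ccl20 had 0 counts in mock and 5, 4 and 9 after treatment, at least 6.34-fold higher. Cxcl12, the constitutive stromal chemokine that retains haematopoietic cells, went the other way, from 812, 803 and 817 CPM to 547, 559 and 565 CPM. It was the single chemokine to fall, and its groups did not overlap.

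Cytokines and colony-stimulating factors were mostly not called. Of 22 tested, 8 rose, 2 fell and 12 were not called. Il6 rose from 0.537, 0.332 and 0.684 CPM to 7.86, 4.58 and 6.31 CPM (log2 3.60 ± 0.21). Tnf had 0, 0 and 1 counts in mock and 12, 17 and 20 after poly(dA:dT), a ratio of 51.8 (95% counting interval 8.86 to 2085). Lif, an IL-6 family cytokine with a higher baseline, rose from 8.13, 8.06 and 9.47 CPM to 25, 21.7 and 21.7 CPM (log2 1.42 ± 0.079). All treated libraries stood above mock in these 3 genes. Il27 rose by 2.16 ± 0.83, but from 0, 2 and 1 counts to 6, 1 and 7 counts with overlapping levels, and not without replicate 1 of either group or replicate 3 of poly(dA:dT). Clcf1 fell by 0.28 on the log2 scale. Tnfsf9 was called lower, at 11.4 and 9.89 CPM, but 10 of 15 alternative settings, among them the leaving out of each library but mock replicate 3, did not call it.

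Genes of the NF-κB system, most of which are also its targets, rose widely by modest amounts. Of 25 tested, 19 rose, 1 fell and 5 were not called, with a median log2 fold change of 0.41, and 1 rose at least 2-fold. That member was Tnfaip3, which encodes the deubiquitinase A20, a brake on NF-κB, and it went from 27, 31.5 and 32.9 CPM to 91, 89.9 and 90.7 CPM (log2 1.58 ± 0.04). Nfkbia, the inhibitor IκBα, rose from 87.3, 87.2 and 84.3 CPM to 124, 118 and 115 CPM (log2 0.46 ± 0.032). The inhibitor gene Nfkbie rose by 0.94 ± 0.038, the subunit gene Relb by 0.64 ± 0.033, and Birc3, a ubiquitin ligase of the pathway, by 0.75 ± 0.064. Cyld, a deubiquitinase with a related role, fell by 0.14.

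Immediate early factors, which are usually brief after a stimulus, were raised at 6 h, the only time sampled. Of 30 tested AP-1 and immediate early genes, 20 rose, 0 fell and 10 were not called, and 9 rose at least 2-fold. Atf3, a stress factor that pairs with AP-1 proteins, rose from 11.8, 11.3 and 11.6 CPM to 73.6, 71.1 and 72.8 CPM (log2 2.65 ± 0.05). Egr1 rose from 34.5, 37.3 and 33.3 CPM to 125, 124 and 119 CPM (log2 1.80 ± 0.036). Fos rose from 1.83, 1.99 and 1.58 CPM to 8.67, 8.98 and 8.65 CPM (log2 2.27 ± 0.14). These 3 genes were higher in every treated library. Fosb was higher after poly(dA:dT), at 6.28, 4.66 and 5.44 CPM, than after poly(I:C), at 2.38, 1.77 and 2.46 CPM, where 26 of the 30 genes were higher after poly(I:C) and 2 after poly(dA:dT). The mock libraries held 1.18, 1.83 and 1.37 CPM of Fosb.

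Phosphatases that limit such signals and factors that control mRNA decay were mixed. Of 18 MAP kinase phosphatase and Sprouty genes, 8 rose, 4 fell and 6 were not called. Dusp8 rose from 5.98 to 14.9 CPM and Dusp16 from 24.8 to 40.5 CPM, both phosphatases that act on the stress kinases JNK and p38. Dusp1, itself an immediate early gene, rose from 14.5 to 23.8 CPM. Dusp9, Dusp7 and Dusp14 fell by 0.15, 0.17 and 0.19 on the log2 scale, the latter pair not with library totals as the scaling. Of 22 mRNA decay factors, 7 rose, 8 fell and 7 were not called. Arid5a, which stabilises Il6 mRNA, rose from 10.4, 11.1 and 11.6 CPM to 33.5, 31 and 32.9 CPM, the single member past 2-fold. Zfp36, which destabilises Tnf mRNA, rose by 0.85 ± 0.08, and Zc3h12a, which encodes the nuclease Regnase-1, by 0.45 ± 0.055. The deadenylase gene Cnot6 fell by 0.22. With library totals as the scaling the decay factors read 11 higher and 4 lower, so their balance depended on it.

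Targets of p53, the factor that answers DNA damage with cell cycle arrest and cell death, rose widely. Of 35 genes on the list, 28 rose, 3 fell and 4 were not called, and 11 rose at least 2-fold. Mdm2, the ubiquitin ligase that degrades p53, rose from 98, 96.1 and 102 CPM to 248, 246 and 239 CPM (log2 1.31 ± 0.029). Cdkn1a, which encodes the cyclin kinase inhibitor p21, rose from 85.8, 86.1 and 83.1 CPM to 184, 185 and 188 CPM (log2 1.12 ± 0.03). Btg2, an antiproliferative cofactor of mRNA deadenylation, rose from 11.3, 10.8 and 12.5 CPM to 54, 54.5 and 48.1 CPM (log2 2.18 ± 0.062). Mock and treated libraries were fully apart in all 3 genes. Eda2r, a receptor of the TNF receptor family, rose by 1.34 ± 0.066 from 14.3 CPM. Pmaip1 and Bbc3, which encode the death proteins NOXA and PUMA, rose by 1.90 ± 0.045 and 1.02 ± 0.10. Bax, Sesn1 and Rrm2b, all known p53 targets, fell by 0.16, 0.14 and 0.18 on the log2 scale. The fall of Sesn1 was not called with library totals as the scaling or without poly(dA:dT) replicate 1.

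The p53 list differed from the interferon lists when the mimics were set side by side. Of its 35 genes, 21 were higher after poly(dA:dT) than after poly(I:C), 7 were higher after poly(I:C) and 7 were not called, beside the 32.1% and 31.3% over all genes. Both contrasts use the same poly(dA:dT) libraries. Mdm2 stood at 132, 133 and 127 CPM after poly(I:C), below every poly(dA:dT) library (log2 of poly(I:C) over poly(dA:dT) -0.90, adjusted p = 6.67e-68, edgeR). Cdkn1a stood at 114, 114 and 114 CPM after poly(I:C), also below every poly(dA:dT) library (log2 -0.70). Eda2r and Btg2 were lower after poly(I:C) by 0.86 and 0.42 on the log2 scale. Pmaip1 and Bbc3 were higher after poly(I:C), by 1.13 and 0.43. Ddit4l, an inhibitor of mTORC1 signalling on the list, had the same order as Mdm2, with 7.77, 8.22 and 7.95 CPM in mock libraries, 25.1, 25 and 26.2 CPM after poly(dA:dT) and 9.55, 9.44 and 9 CPM after poly(I:C).

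**Figure D3:**
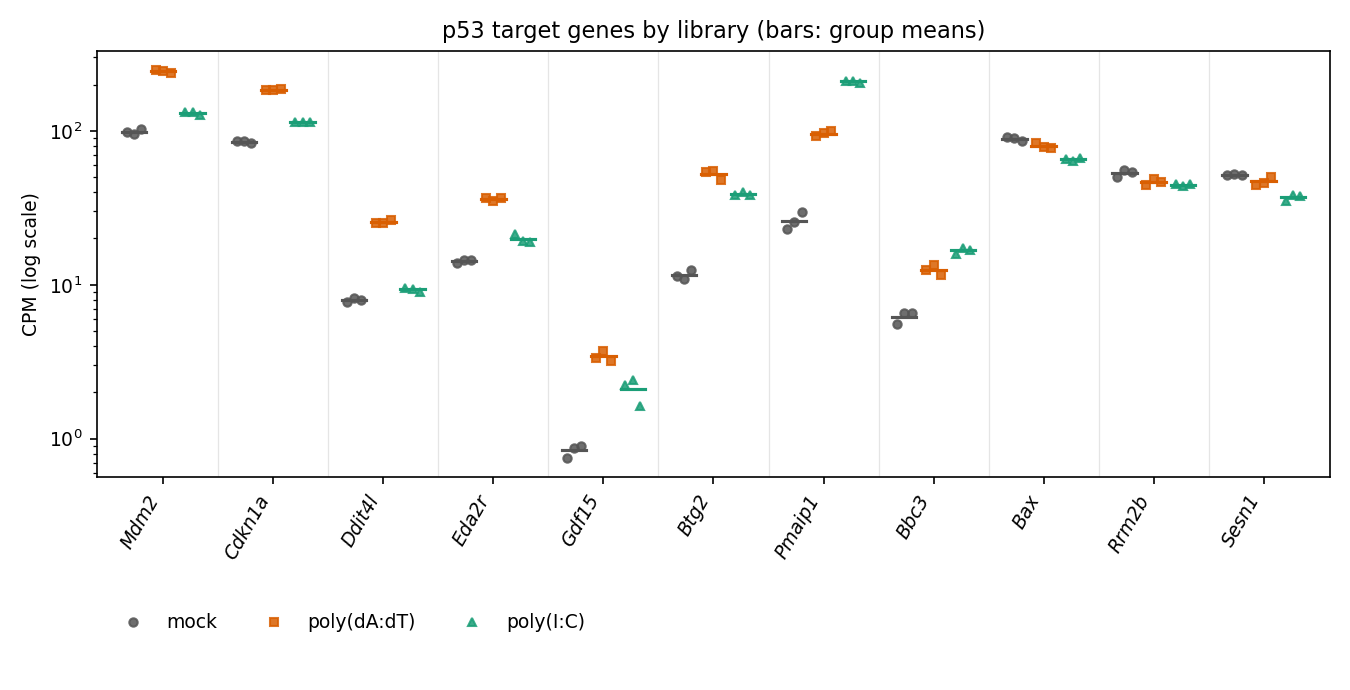
Level in CPM (log axis) of 11 p53 target genes in each of the 3 mock (circles), 3 poly(dA:dT) (squares) and 3 poly(I:C) libraries (triangles), 1 point per library, with bars at the group means. The poly(dA:dT) points of Mdm2 and Cdkn1a are the highest of the groups, while those of Pmaip1 lie between mock and poly(I:C).

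Genes of DNA damage kinases and repair showed small rises. Of 36 tested, 20 rose, 3 fell and 13 were not called, and none reached 2-fold. Polm, a polymerase of end joining, rose from 9.81, 10.5 and 10.3 CPM to 18.6, 14.9 and 14.8 CPM. Rnf168, which ubiquitinates histones at breaks, rose by 0.49 ± 0.031 and Brca2, which acts in homologous recombination, by 0.47 ± 0.039. Topbp1, an activator of the ATR kinase, fell from 297 to 254 CPM.

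Genes of the ATF4 programme, by which cells meet amino acid shortage and blocked translation, rose in part. Of 33 tested, 20 rose, 4 fell and 9 were not called. Chac1, a glutathione-degrading enzyme, rose from 17.2, 20.2 and 22.1 CPM to 68.7, 71.2 and 65.8 CPM (log2 1.81 ± 0.051). Trib3, a pseudokinase that limits ATF4, rose from 28.6, 27.2 and 25.9 CPM to 74.3, 72.4 and 71 CPM and stood at 71.8, 70 and 71.8 CPM after poly(I:C). Ppp1r15a, which encodes the phosphatase subunit GADD34, rose from 32.7, 34.9 and 34.5 CPM to 84.4, 87.1 and 83.8 CPM (log2 1.32 ± 0.039). The groups of these 3 genes were apart between mock and poly(dA:dT). For Trib3 the difference between the mimics missed the threshold (log2 -0.03, adjusted p = 0.569, edgeR). Slc3a2, a subunit of amino acid exchangers, rose from 291 to 548 CPM, while the serine synthesis genes Phgdh and Psat1 fell by 0.17 and 0.07 on the log2 scale, Psat1 not with library totals as the scaling (log2 0.00).

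Chaperones were mostly lower. Of 25 ER chaperone and unfolded protein response genes, 4 rose, 19 fell and 2 were not called. Dnajc3 and Dnajb11, cochaperones of the ER, fell by 0.32 and 0.27 on the log2 scale, and the ER stress sensor gene Eif2ak3 by 0.31. Herpud1, a component of ER-associated degradation, rose from 79.7, 83.1 and 82.9 CPM to 131, 129.7 and 127 CPM (log2 0.66 ± 0.032), against the direction of the list. Of 25 cytosolic heat shock genes, 3 rose, 16 fell and 6 were not called. Hspa1b, an inducible HSP70 gene, fell from 24.4, 26.1 and 25.2 CPM to 19.3, 17.5 and 17.9 CPM (log2 -0.47 ± 0.069). Its groups did not overlap, though reads can be shared with Hspa1a, also on the list. With library totals as the scaling, 12 of the ER genes were lower.

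Cell death genes moved in both directions. Of 33 tested, 10 rose, 14 fell and 9 were not called. Besides Pmaip1, Casp4, the mouse caspase-11 that senses lipopolysaccharide, rose from 8.41, 8.76 and 8.21 CPM to 13.4, 14.5 and 14.6 CPM, and Casp2 rose by 0.51 ± 0.041. Bak1, which permeabilises mitochondria, fell from 126 to 98.9 CPM. Cflar, an inhibitor of caspase-8, fell by 0.32 on the log2 scale, and Bmf fell by 0.64, though not without poly(dA:dT) replicate 1. With library totals as the scaling 14 rose and 8 fell, and without poly(dA:dT) replicate 3 the falls numbered 9.

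Antigen presentation genes moved in both directions. Of 23 MHC class I and immunoproteasome genes, 7 rose, 5 fell and 11 were not called. These shares are close to the 26.6% higher and 26.2% lower over all genes tested. Tap1, a peptide transporter, rose from 27.4, 25 and 24.2 CPM to 46, 42.4 and 42.7 CPM (log2 0.77 ± 0.05), and Nlrc5, the transactivator of class I genes, from 8.28 to 13.7 CPM. H2-Q7 rose by 1.68 ± 0.14, though reads can be shared with other H2-Q genes. B2m, the light chain of class I, fell from 489.6, 475 and 471 CPM to 428, 424 and 436 CPM, with no overlap. Psmb10 and Psme2, parts of the immunoproteasome, fell by 0.27 and 0.24 on the log2 scale. The rises numbered 4 with DESeq2, with no filter on low counts and without mock replicate 2, and 13 with library totals.

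Enzymes and growth factors of inflammation gave a few clear rises. Of 18 inflammation-induced enzymes, 10 rose, 5 fell and 3 were not called. Hdc, which makes histamine, rose from 2, 3 and 0 counts to 19, 32 and 19 counts, and Ptgs2, which encodes cyclooxygenase 2, from 28.1, 24.5 and 26.1 CPM to 35.3, 35 and 36.3 CPM. Ptges, the prostaglandin E synthase that acts after it, rose from 5, 1 and 2 counts to 12, 15 and 17 counts. Hmox1, the haem-degrading enzyme, fell from 318, 315 and 310.1 CPM to 219.5, 197 and 203 CPM (log2 -0.61 ± 0.025), and Plaur, the urokinase receptor, fell by 0.48 on the log2 scale. Of 10 EGF family ligands and receptors, 5 rose, 2 fell and 3 were not called. Areg rose by 1.98 ± 0.30 and Egf by 1.68 ± 0.17, both from under 2 CPM, and Egfr rose from 20.9 to 29.3 CPM. Of 13 complement genes, C3 alone rose, from 118 to 161 CPM, and 4 fell.

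Clock and TGF-β genes were mixed. Of 22 circadian clock genes, 8 rose, 5 fell and 9 were not called. Ciart, a repressor of the clock, rose from 6.84, 5.56 and 7.26 CPM to 12.9, 14.7 and 14.4 CPM (log2 1.10 ± 0.10), and Nr1d1, which encodes REV-ERBα, rose by 0.89 ± 0.057 while its relative Nr1d2 fell by 0.21 on the log2 scale. Of 33 TGF-β and BMP genes, 6 rose, 13 fell and 14 were not called. The ligand genes Tgfb1 and Tgfb3 fell by 0.29 and 0.38, and the activin antagonist Fst rose by 1.12 ± 0.22 from 1.12 CPM. With library totals as the scaling, 11 of the TGF-β and BMP genes rose and 9 fell.

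Long non-coding RNAs moved in both directions. Of 25 listed long non-coding RNAs, 11 rose, 5 fell and 9 were not called. Zfas1 rose from 85.8, 83.8 and 85 CPM to 183, 174 and 175 CPM (log2 1.06 ± 0.03). Snhg15 rose from 14.7, 15.9 and 14.4 CPM to 51.3, 52.8 and 51 CPM (log2 1.78 ± 0.054), and Snhg12 from 21.6, 20.7 and 22.4 CPM to 67.7, 67 and 69.4 CPM (log2 1.66 ± 0.048). These 3 and the others named Snhg are hosts of small nucleolar RNAs. Snhg17 and Snhg5 rose by 1.52 ± 0.045 and 1.13 ± 0.04, while Snhg18 and Snhg20 fell by 0.42 and 0.23 on the log2 scale, Snhg20 not without poly(dA:dT) replicate 2 or with library totals as the scaling. Neat1, the scaffold of nuclear paraspeckles, rose from 46.6, 45.4 and 45.2 CPM to 87.9, 89.9 and 86.3 CPM, and Pvt1, next to Myc, from 12.2 to 32.6 CPM. Mir22hg, the host of miR-22, fell from 9.3 to 5.61 CPM.

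Replication-dependent histone genes, whose transcripts normally lack a poly(A) tail and are made in S phase, rose. Of 16 tested, 10 rose, 0 fell and 6 were not called, and 9 rose at least 2-fold, while 11 of the 27 listed had too few counts to be tested. Hist1h1b rose from 0.107, 0.249 and 0.263 CPM to 5.32, 4.62 and 4.39 CPM (log2 4.55 ± 0.26). Hist1h2bc rose from 4.22, 4.15 and 3.53 CPM to 15.8, 15.2 and 13.8 CPM (log2 1.89 ± 0.10). Summed over the 68 genes whose symbol starts with Hist, the level was 42.3, 43.4 and 40.6 CPM in mock libraries, 118, 113.9 and 109.6 CPM after poly(dA:dT), and 467, 464 and 469 CPM after poly(I:C). The 3 groups of libraries were well apart. Genes of DNA replication did not share this pattern, since 14 of 45 rose, 11 fell and 20 were not called (24 and 5 with library totals). The poly(A)-selecting library kit sees such transcripts only where they carry a tail.

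Genes named Zfp, mostly zinc finger proteins that bind DNA, were raised as a family below 100 CPM, a pattern chosen after its values were seen. Of 354 tested, 228 rose and 19 fell, with a median log2 fold change of 0.38. Within the abundance class of 10 to 100 CPM, 72.0% of them rose against 31.6% of other genes, and within 1 to 10 CPM 62.6% rose against 25.7%. In the class of 100 to 1000 CPM, 10.0% of 10 Zfp genes rose and 80.0% fell, against 16.9% and 62.1% of other genes. Trim genes, a ubiquitin ligase family with many antiviral members, numbered 26 higher and 4 lower of 43, and centrosomal Cep genes 22 higher and 5 lower of 38. Ubiquitin pathway genes named Ube numbered 1 higher and 20 lower of 37.

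Calls followed abundance. Of 1929 genes under 1 CPM, 18.0% rose and 0.985% fell, with a median log2 fold change of 0.29. The filter by group ran over all 9 libraries, so a gene could enter this class through the group where it was high. Rises in this class numbered 347, but 193 in the fit of only the 6 libraries. The part of the filter in this excess of rises was not tested. Of 6768 genes between 10 and 100 CPM, 32.6% rose and 27.2% fell. Of 66 genes at or above 1000 CPM, 9.09% rose and 87.9% fell, with a median of -0.20. Short transcripts were more often lower: of 237 protein-coding genes with less than 1 kb of exon 108 fell, whereas of 2339 genes with 8 kb or more 608 fell and 766 rose. Among genes of 10 to 100 CPM alone, 74.2% of those under 1 kb fell against 21.6% of those of 8 kb or more. The length classes were chosen after earlier results were seen. CPM are shares of a library, and the 50 most abundant genes held 10.3% to 10.4% of the counts in mock and 9.61% to 9.67% after poly(dA:dT). The part of this shift in the small falls was not tested.

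**Figure D4:**
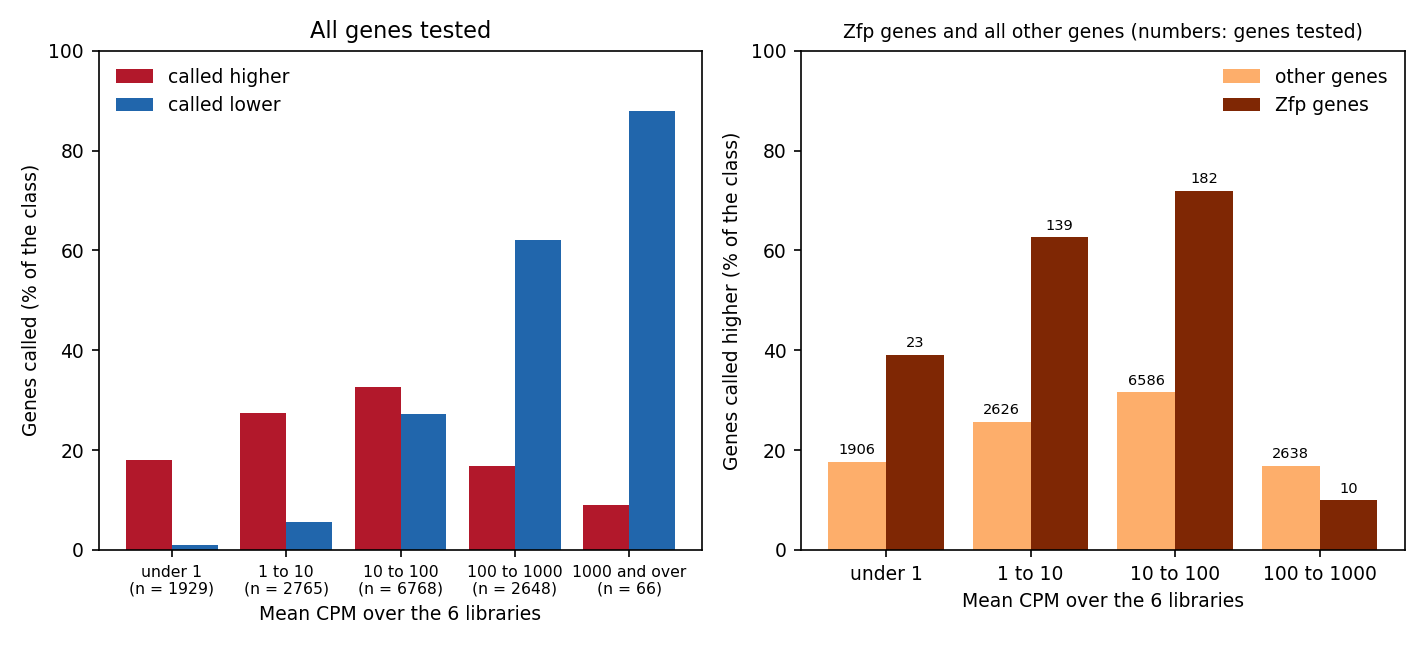
Left, share of tested genes called higher (red) and lower (blue) in 5 classes of mean CPM over the 6 libraries. Right, share called higher among Zfp genes (dark) and all other genes (light) in 4 of these classes, with the number tested above each bar. The share of genes called lower goes from 0.985% in the lowest class to 87.9% in the highest.

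Transcripts of the respiratory chain and of ribosomes were nearly all slightly lower. Whether these or other lists of abundant genes fell more often than genes of like abundance and length was not tested. At 100 to 1000 CPM, 97.2% of protein-coding genes with less than 1 kb of exon fell. The share was 87.8% for those of 1 to 2 kb and 48.7% for those of 8 kb or more. All 39 nuclear genes of oxidative phosphorylation on the list fell (35 with library totals as the scaling), with a median log2 fold change of -0.23. Uqcrh, a subunit of complex III, fell from 147, 147 and 147 CPM to 102, 102 and 113 CPM (log2 -0.47 ± 0.034), and Ndufa4 from 232 to 184 CPM. Of 12 tested transcripts of the mitochondrial genome, 10 fell and 2 were not called. Of these mt-Nd1, a complex I subunit, stood at 892, 910.3 and 935 CPM in mock libraries, 661, 659 and 667 CPM after poly(dA:dT) and 1003, 999 and 944 CPM after poly(I:C). It was lowest after poly(dA:dT), and 10 of the 12 transcripts were higher after poly(I:C) than after poly(dA:dT). The share of counts on mitochondrial genes, at times read as a sign of cell or RNA quality, was 0.317% to 0.323% in mock and 0.259% to 0.263% after poly(dA:dT).

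Of 45 cytosolic ribosomal protein genes, 1 rose, 43 fell and 1 was not called. Rpl11 fell from 743, 729 and 733 CPM to 586, 574 and 577 CPM (log2 -0.34 ± 0.019), and Rps15 by 0.35 on the log2 scale. The gene that rose was Rpl3, by 0.09 ± 0.017. Genes of ribosome biogenesis went partly the other way, with 16 of 35 higher and 8 lower. Polr1b, a subunit of RNA polymerase I, rose by 0.40 ± 0.047 and Nop56, a core snoRNP protein, from 354 to 429.6 CPM.

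Genes of the actin cytoskeleton and matrix, which mark the fibroblast, were lower by small amounts. Of 27 actin and contractile genes, 2 rose, 22 fell and 3 were not called. Actg1, which encodes γ-actin, fell from 3413, 3471 and 3431 CPM to 2852, 2890.4 and 2876 CPM (log2 -0.26 ± 0.015). Acta2, smooth muscle actin, fell from 3168, 3176 and 3119 CPM to 2545, 2564 and 2573 CPM (log2 -0.30 ± 0.016). Neither gene had overlapping groups. Of the cytoskeletal genes 2 rose, Zyx by 0.16 ± 0.025 and Myh9 by 0.08 ± 0.018, the latter not with DESeq2. Outside that list Rnd1, a small GTPase that disassembles actin stress fibres, rose from 71.5, 75.1 and 71.8 CPM to 168, 162 and 165 CPM (log2 1.18 ± 0.029).

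Of 31 collagen and matrix genes, 4 rose, 21 fell and 6 were not called. Col3a1 fell from 227, 227 and 226 CPM to 167, 169.7 and 171 CPM (log2 -0.42 ± 0.027), and Lox, which crosslinks collagen, from 199 to 149 CPM. Col1a1 fell from 3027, 3057 and 2905 CPM to 2581, 2627 and 2527 CPM, with an adjusted p of 0.00452 in edgeR's test. Fn1, fibronectin, rose from 1918, 1913 and 1943 CPM to 2376, 2413 and 2415 CPM, against the rest of the list. Of 23 matrix proteases and inhibitors, 2 rose, 14 fell and 7 were not called, with Timp2 at 1285 and 1033 CPM and Mmp14 at 125 and 100.1 CPM.

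Transcripts that peak in G2 and M phase fell. Of 35 tested, 29 fell and 6 were not called. Cenpf, a kinetochore protein, fell from 155, 153 and 157 CPM to 118, 113 and 116 CPM (log2 -0.42 ± 0.03). Ccnb1, cyclin B1, fell from 285, 279 and 285 CPM to 232, 224 and 238 CPM (log2 -0.29 ± 0.025). Each treated library was below each mock library in both genes. Of the replication genes that rose, Pole, a DNA polymerase ε subunit, went from 160.2 to 225 CPM and Mcm10 from 108 to 149.6 CPM.

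The list of sterol and fatty acid enzymes had 33 tested members, of which 5 rose, 12 fell and 16 were not called. Scd2, a desaturase, fell from 1454 to 1178 CPM, whereas Insig1, which restrains the pathway, rose by 0.15 ± 0.04. The rises on this list numbered from 2 (DESeq2, or without poly(dA:dT) replicate 1) to 11 (library totals, with 8 falls), with 3 without mock replicate 2. Of 27 glycolysis and hypoxia genes, 3 rose, 17 fell and 7 were not called. Gapdh fell from 1311, 1319.7 and 1278 CPM to 1070.5, 1066 and 1079 CPM (log2 -0.28 ± 0.018). Vegfa, an angiogenic factor, and Hk2, hexokinase 2, rose by 0.47 ± 0.037 and 0.32 ± 0.054.

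**Figure D5:**
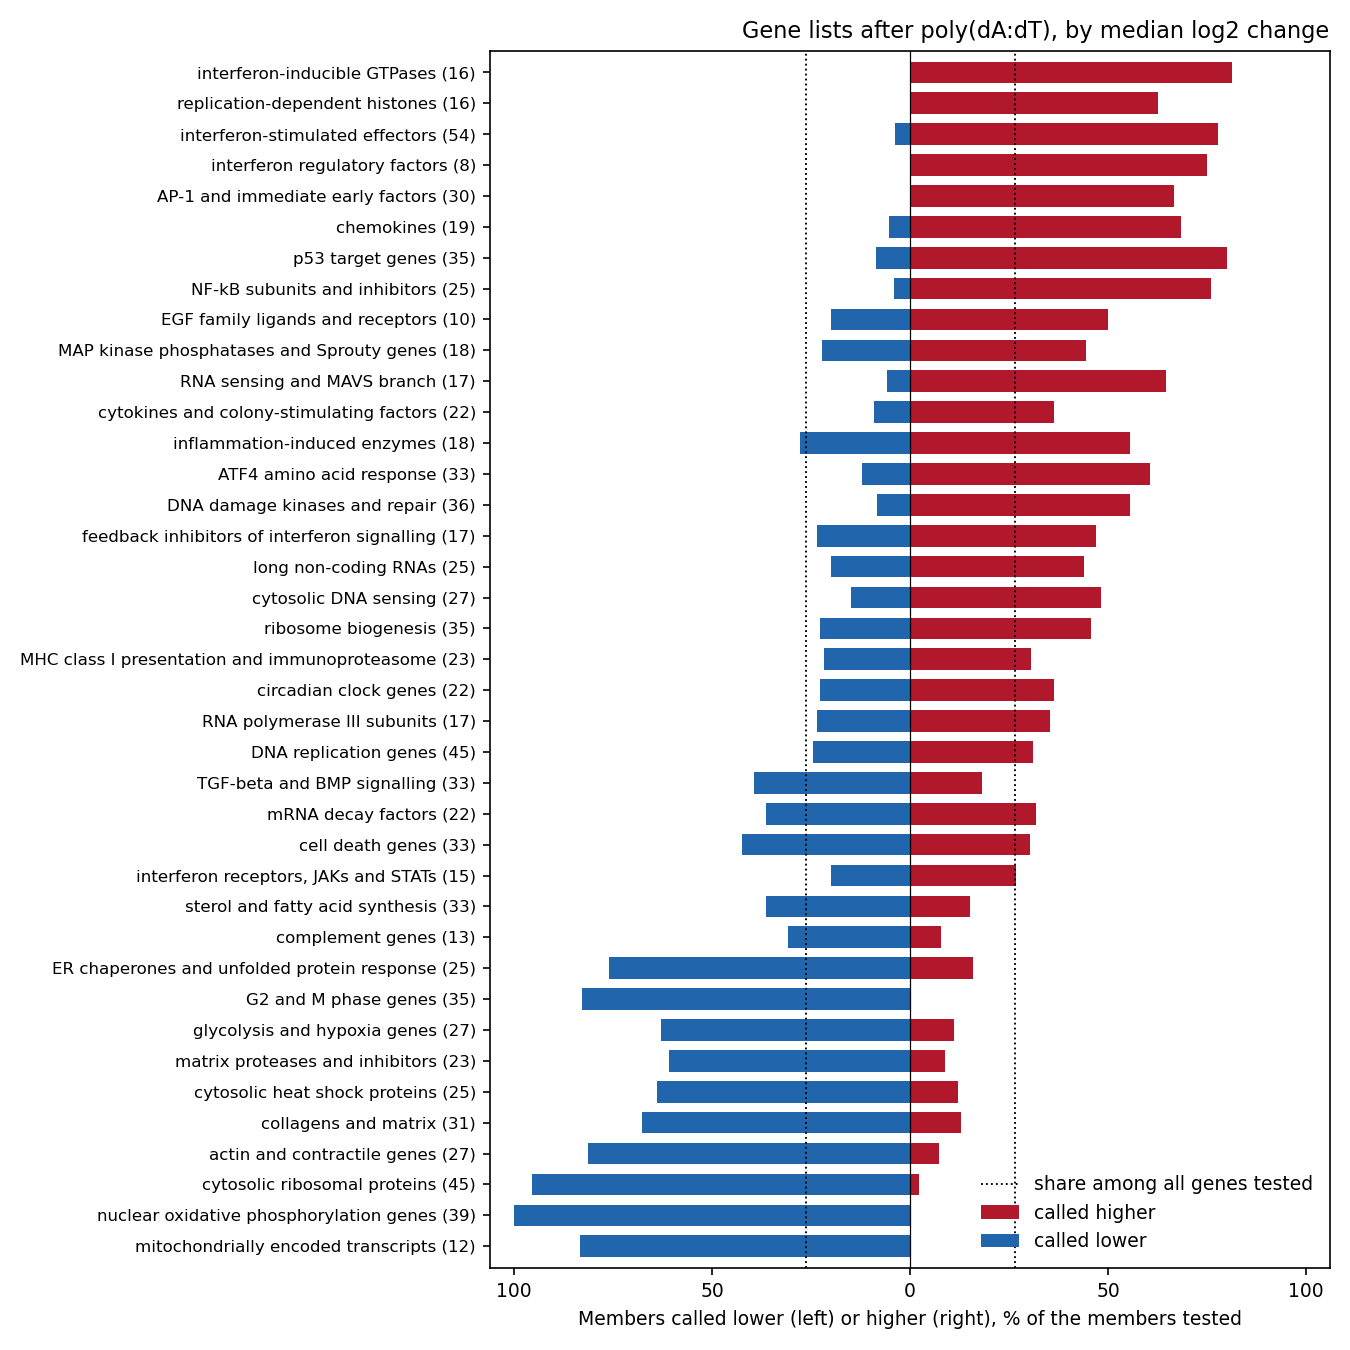
Share of the tested members of 39 gene lists called higher (red, to the right) and lower (blue, to the left) after poly(dA:dT), in percent, with the number tested in brackets and dotted lines at the shares over all genes. Lists are ordered by median log2 fold change, from 2.51 for the GTPases to -0.34 for the mitochondrially encoded transcripts.

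Several of the largest changes lay outside the lists. Of the 544 genes at least 2-fold higher, 123 belonged to a list and 421 to none. Cd209c, a C-type lectin related to DC-SIGN, rose from 6.41, 7.14 and 5.68 CPM to 52.9, 56 and 55.3 CPM (log2 3.08 ± 0.062). Klhdc7a rose from 1.32, 1.29 and 1.68 CPM to 8.77, 9.03 and 9.13 CPM (log2 2.67 ± 0.14). Dbhos, an RNA antisense to Dbh, rose from 1.47, 0.914 and 1.21 CPM to 9.1, 8.73 and 9.74 CPM, but the kit does not mark the strand, so reads of overlapping genes cannot be told apart. These 3 genes were higher in every treated library than in any mock library. Among abundant genes, Txnip, which binds thioredoxin and limits glucose uptake, rose from 99.9, 96.5 and 100.2 CPM to 254, 255 and 271 CPM (log2 1.40 ± 0.027), Rhob, a small GTPase, rose by 0.73 ± 0.033, and Rnf213, a large ubiquitin ligase, by 0.76 ± 0.026.

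The largest falls of genes with at least 5 CPM were smaller than 2-fold. Nrep fell from 29.4, 28.2 and 29.1 CPM to 18.5, 18.5 and 17.9 CPM (log2 -0.66 ± 0.066). Gas1, a growth arrest protein of the hedgehog pathway, fell from 137, 141 and 137 CPM to 91.6, 86.7 and 93.3 CPM (log2 -0.61 ± 0.032). F3, tissue factor, fell from 136, 131 and 139 CPM to 89.8, 89.3 and 91.6 CPM (log2 -0.59 ± 0.032). No libraries of these 3 genes overlapped between the groups. Ccn5, a matricellular protein, and Ptgfr, the prostaglandin F receptor, fell by 0.60 and 0.61 on the log2 scale, and the abundant calcium-binding protein gene S100a11 fell from 520.2 to 366 CPM. All 9 genes past 2-fold in this direction averaged below 1 CPM and included Phf20-ps, Lhx1os and Lyl1, named after their values were seen. That count was 17 without mock replicate 1, and 18, 14 and 17 without poly(dA:dT) replicate 1, 2 and 3.

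Some of the strong rises were neighbours. Runs of at least 3 genes that were at least 2-fold higher and near each other numbered 24. They held 92 of the 541 such genes with a known position, and how often other genes form runs was not measured. Besides the Ifit run, 5 of 6 tested genes between 120730333 and 120907521 on chromosome 5 were Oas genes that rose, and all 3 tested genes between 142493978 and 142573209 on chromosome 3, Gbp5, Gbp7 and Gbp3, rose. Cxcl9, Cxcl10 and Cxcl11 formed a run on chromosome 5 from 92321347 to 92365485 with 3 of 4 tested genes. On chromosome 13, 8 of 16 tested genes between 23535422 and 23764406 rose, all of them histone genes. Irf7 lay in a run with Lmntd2 and Pidd1, a p53 target, where 3 of 10 tested genes rose at least 2-fold. Ppp1r15a lay in a run with Fgf21, which averaged 0.357 CPM, where 3 of 16 tested genes did so. The members of runs were chosen by their rise, so their closeness is a description, and copies within the Oas, Gbp and histone clusters can share reads.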

How the data were processed

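The files held whole-number read counts per Ensembl gene, 46603 genes in each, used as deposited by the authors. The submitters' processing notes name the GRCm38.p4 build, the aligner TopHat2 (2.1.0), the counter HTSeq, and DESeq2. No source used here states the annotation release or strand setting. Symbols came from GENCODE M21, and 512 genes without an entry held 0.0588% of the counts.

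All 9 libraries entered 1 fit in edgeR 4.0.16 (R 4.3.3): TMM scaling, filterByExpr by group, and the robust quasi-likelihood test, two-sided, with Benjamini-Hochberg adjustment over 14176 genes and a threshold of 0.05. CPM used the TMM-scaled library sizes, and the log2 fold changes a prior count of 0.125. The SE is the absolute log2 fold change over the square root of F. It understates the uncertainty of large rises from few mock counts. Where mock had 0 counts the fold is a bound set by 3 counts, and with 1 to 3 counts a ratio with its 95% counting interval. Replicates differed by more than sampling noise (chi-square per degree of freedom 1.65 to 2.1), so each library counted once.

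The 40 gene lists, the genes compared with poly(I:C), the families and the classes were chosen with earlier results of these data known. Named genes are 41 key genes, the largest changes above 5 and 100 CPM without overlap, and up to 5 called members of each list per direction. A few genes that this rule would name are not reported here. Neighbours lay within 200 kb. Alternatives were other scalings and filters, DESeq2 1.42.0, a fit of the 6 libraries, a replicate block, a prior count of 2 and leaving out each replicate. The Zfp, abundance and poly(I:C) alternatives were chosen after seeing the data.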

Additional observations from a re-analysis of the deposited data

How the results depend on the processing

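The count of genes called higher was 2890 to 5004 over the alternatives and within 1.5 times of 3769 under each of them. The count called lower was 2389 with library totals as the scaling, against 3721, and within 1.5 times of it under the others. The count at least 2-fold higher was 299 with a filter of 50 counts, where fewer genes were tested, 394 in a fit of only the 6 libraries, and 488 to 630 under the others. The count at least 2-fold lower was 0 with the filter of 50 counts, 25 with no filter, 5 in a fit of only the 6 libraries, and 8 to 18 where each replicate was left out in turn, and the cause was not tested. With upper-quartile factors 55.4% of the calls were increases, with DESeq2 size factors 46.3% and with DESeq2 45.6%. Pcbp2 and Psat1 changed sign with library totals (log2 0.0035 and 0.0048), and the Trib3 difference between the mimics did so with the filter of 50 counts (0.0050) and library totals (0.013). None of these 4 values was called.

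With a replicate block the counts were 3723 higher, 3661 lower and 538 at least 2-fold higher. The deviations of libraries with the same number correlated by 0.0707, 0.0315 and 0.0613 over 10538 genes, each below 0.1, so the numbers were not taken to pair the samples, although each library correlated best with its own number. With library totals as the scaling the falls numbered 5 of 45 DNA replication genes, 4 of 35 ribosome biogenesis genes, 2 of 22 clock genes, 2 of 17 feedback inhibitors, 2 of 18 phosphatase and Sprouty genes, 2 of 33 ATF4 genes, 2 of 13 complement genes, 1 of 36 repair genes, 1 of 10 EGF family genes and 11 Zfp genes. Collagen and matrix rises numbered 2 with DESeq2 and 7 with library totals. Of genes under 1 CPM, 347 were called higher, but 193 in the fit of 6 libraries and 68 with the filter of 50 counts. Both settings tested fewer genes, 13455 and 11717 against 14176.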

Other observations

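Long non-coding genes held a larger share of strong rises than protein-coding genes. Of 857 tested, 151 were called higher and 38 lower, and 76 (8.87%) were at least 2-fold higher, against 427 of 12725 protein-coding genes (3.36%). Pseudogenes numbered 23 of 314 (7.32%). These classes differ in abundance, and the difference between them was not tested.

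Mitochondrial ribosomal proteins named Mrpl followed the cytosolic ones, with 1 higher and 25 lower of 48. Translation factors named Eif numbered 5 higher and 26 lower of 52, and ATPase genes named Atp 7 higher and 38 lower of 66. Zbtb genes, another family of zinc finger factors, numbered 22 higher and 7 lower of 39.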
